A study of Mus musculus with 8 samples.

Results

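The cytosolic ribosomal protein genes encode the proteins that, with ribosomal RNA, build the ribosome outside the mitochondria. They were taken by symbol (Rpl or Rps and a digit, Rplp, or Rpsa), leaving out the S6 kinases, Rps19bp1 and pseudogenes. Each gene had 1 probe set, the brightest over the 4 RNAs, with array type A taken before type B even where type B was brighter. This gave 49 genes of the 18193 that a probe set with 1 gene symbol represented. They are not the full set of ribosomal protein genes: Rpl3 and Rplp1, for example, are not among them. A further 112 probe sets that name a ribosomal protein gene together with other symbols were left out. Array type A carried 48 of the 49 genes and type B the remaining 1, and 26 belong to the large subunit and 23 to the small subunit. The samples were total RNA of cultured mouse skeletal muscle myotubes, fused multinucleated muscle cells. Of 4 RNAs, each put on 1 array of type A and 1 of type B, the labels call 1 truncated Egr-3 and 1 wildtype, both with the treatment type grow. RNA275 carries only the treatment type acclimatization and RNA276 carries none, so they belong to no group. Their values are shown beside those of the labelled RNAs as a description of 4 RNAs, and no condition is compared through them. The series asks which genes Egr3, a zinc-finger transcription factor, regulates in myotubes. The labels do not state how the truncated protein was introduced, or the age or strain of the animals.

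The small subunit of the ribosome reads the messenger RNA, and the large subunit joins amino acids. The proteins are needed in matched amounts, and a surplus of a single protein is normally degraded. Their messenger RNAs begin with a run of pyrimidines, the terminal oligopyrimidine tract, through which the kinase mTOR and the RNA-binding protein Larp1 adjust their translation. A change in translation alone is not seen in the amount of messenger RNA, which is what an array reads. In growing muscle, ribosome number is a main determinant of how much protein the fibre can make.

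The starts of 8 members are printed as examples with and without the pyrimidine run. They include Rpl22, the member with the highest difference described further on, but not Rpl14, Rpl7l1 or Rpl12, and they do not represent the extremes. The sequences are RefSeq promoters of the GRCm38.p6 build, from 40 bases before to 40 bases after an annotated start. Capitals mark a run of at least 6 pyrimidines that touches the 5 bases on either side of that start. The windows are Rpl22 chr4:152325686-152325765 (plus strand), Rpl22l1 chr3:28805468-28805547 (plus strand), Rpl41 chr10:128549129-128549208 (minus strand), Rps18 chr17:33955626-33955705 (minus strand), Rpl35 chr2:39005092-39005171 (minus strand), Rps10 chr17:27635205-27635284 (minus strand), Rpl37 chr15:5116573-5116652 (plus strand) and Rps19 chr7:24884552-24884631 (plus strand). Rpl22 has 2 annotated starts and Rps19 has 3, of which the first listed is shown.
Rpl22: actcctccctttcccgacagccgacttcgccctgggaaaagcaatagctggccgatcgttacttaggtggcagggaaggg
Rpl22l1: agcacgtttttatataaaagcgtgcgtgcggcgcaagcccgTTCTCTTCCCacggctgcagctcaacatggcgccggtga
Rpl41: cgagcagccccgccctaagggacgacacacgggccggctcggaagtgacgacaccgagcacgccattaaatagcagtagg
Rps18: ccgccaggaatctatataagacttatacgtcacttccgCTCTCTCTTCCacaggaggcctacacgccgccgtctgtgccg
Rpl35: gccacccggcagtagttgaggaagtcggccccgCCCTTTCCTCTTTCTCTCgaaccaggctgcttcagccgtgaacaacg
Rps10: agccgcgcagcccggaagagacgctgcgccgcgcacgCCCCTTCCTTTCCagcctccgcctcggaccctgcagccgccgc
Rpl37: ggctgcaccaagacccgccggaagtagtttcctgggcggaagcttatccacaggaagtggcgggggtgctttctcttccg
Rps19: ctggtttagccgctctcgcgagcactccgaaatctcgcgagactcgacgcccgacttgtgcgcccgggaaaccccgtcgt

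Rpl35, Rps10, Rps18 and Rpl22l1 carried runs of 18, 13, 11 and 10 pyrimidines at the start, and the printed starts of Rpl22, Rpl41, Rpl37 and Rps19 carried none. Of the 49 members, 43 had a promoter in the table. A run was found at a start of 23 of these 43 (53.5%), against 23.0% of the 27025 genes of the table and 23.1% of its protein-coding genes. The letters CCGGAAG, the core bound by Ets family factors, were found on either strand of the 300-base window of 21 of the 43 members (48.8%), against 9.93% of all genes and 12.9% of protein-coding genes. CTTTCC on the sense strand stood in 17 of the 43 (39.5%), against 16.0% of all genes and 15.9% of protein-coding genes, and can overlap the pyrimidine run. AAGATGGC, the core of the YY1 site, stood on either strand in 4 of the 43 (9.30%), against 3.19% of all genes and 3.57% of protein-coding genes. TATAAA on the sense strand stood in 5 of the 43 (11.6%), near the 9.77% of all genes and 9.82% of protein-coding genes. These are matches of letters. An annotated start can lie away from the start that myotubes use. Runs farther from the annotated start, such as the one near the end of the printed Rpl37 window, did not count.

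Between the truncated-Egr3 and wildtype RNAs the ribosomal protein genes differed little. Rpl22 was the 1 member at least 1.5-fold apart, higher in the truncated-Egr3 RNA, and no member was 1.5-fold lower. Signals at or under a floor (67.6 on type A, 112.6 on type B) were set to it, and a gene counted as measured when either of these RNAs was above it, which held for 44 of the 49 members and 10307 of all genes. Over all measured genes 4.7% were 1.5-fold or more higher and 4.59% were that far lower, so the share of members that far apart was no greater than over all genes. At a lower threshold, a ratio of 5 to 4, 4 members were higher, against 16.4% of all measured genes, and 5 were lower, against 14.0%. The 5 members under the floor in both labelled RNAs were Rpl3l, Rpl27a, Rpl39l, Rps4l and Rps16.

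Each label has 1 RNA, so the differences have no replicate check, no p-value could be computed, and the values hold for these 2 RNAs alone. The error that could be measured was technical. The 100 probe sets present on both array types gave an SD of 0.18 for the log2 difference of a single probe set. That SD covers the arrays and not the variation between cultures, and it leaves out the mean offset between the array types. None of the 100 probe sets is of a member. Their median type A signal was 343, against 2979 for the measured members, so the SD may differ at the members' signal. The log2 differences of the 44 members ran from -0.36 to 0.80 with an SD of 0.24, against an SD of 0.37 over all measured genes. The median member had a log2 difference of -0.13, against 0.00 over all measured genes, and 31 of 44 members were lower in the truncated-Egr3 RNA.

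**Figure D1:**
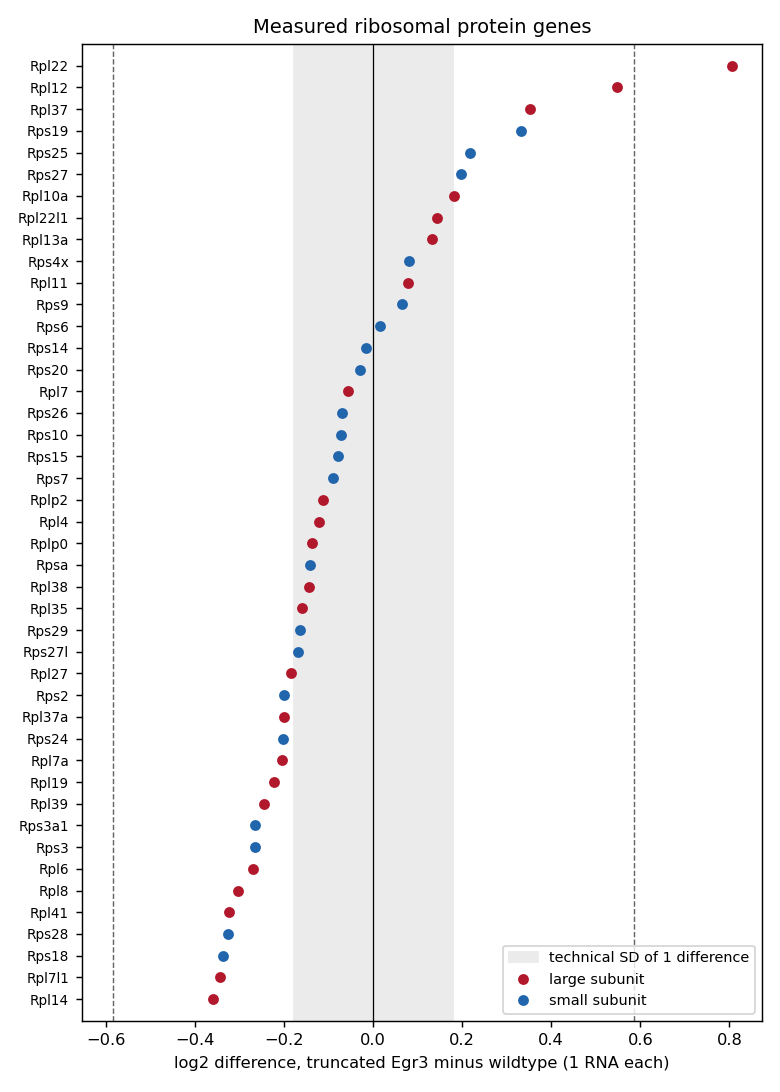
Log2 difference of signal, truncated Egr3 minus wildtype, for the 44 measured ribosomal protein genes (vertical axis), coloured by subunit. The grey band is the technical SD of 0.18 on either side of 0, taken from probe sets of other genes. The dashed lines mark 1.5-fold, and Rpl22 at 0.80 is the point beyond them.

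That median moved with the brightness of the probe sets. The members are bright, with a median signal over the 4 RNAs of 2979, against 212 for all measured genes. On type A, 18 of the 19 members with a mean signal of 3000 or more were lower in the truncated-Egr3 RNA, with a median log2 difference of -0.20. Among the other genes that bright, 27 of 28 were lower, with a median of -0.26. From 2000 to 3000, 9 of 13 members were lower (median -0.07), and 45 of 61 other genes were (median -0.12). From 1000 to 2000, 3 of 4 members were higher, and 192 of 313 other genes were lower. Other genes between 67.6 and 500 had medians of 0.00 and 0.01.

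The array types also differed. On type B, which holds none of the measured members, 187 of 262 genes with a signal of 1000 or more were higher in the truncated-Egr3 RNA, with a median log2 difference of 0.15. The 100 probe sets on both types had a mean log2 difference of 0.02 as read by type A and 0.16 as read by type B, an offset of -0.14 that is as large as the median of the members. Quantile normalization, which gives the arrays the same distribution of signals, put the median of the members at 0.027, with 24 of 44 above 0. Intensity-dependent loess put it at -0.017. The sign was negative under the deposited scale and 3 other scalings for 19 members, positive under all 4 for 12, and depended on the scaling for 13. The sign of the group's median thus depended on the scaling.

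**Figure D2:**
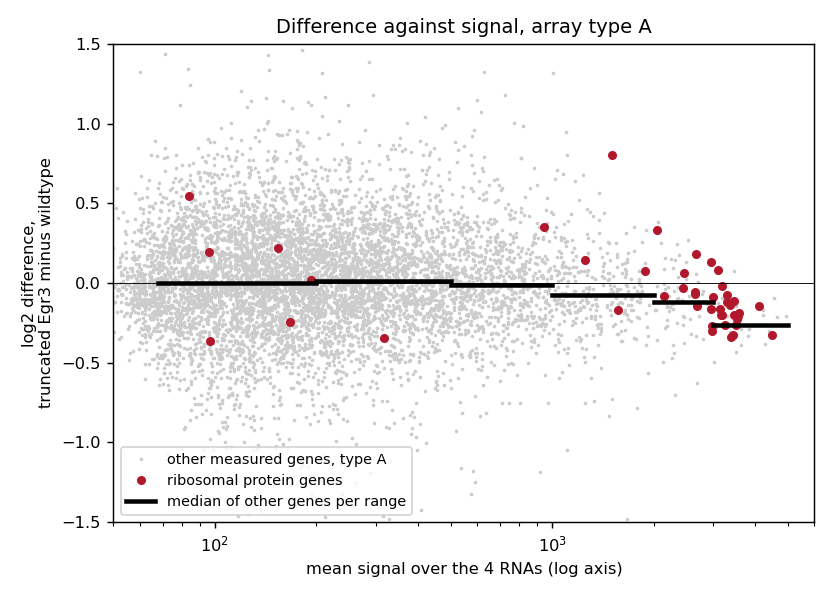
Log2 difference, truncated Egr3 minus wildtype, against mean signal over the 4 RNAs on a log axis, for measured genes of array type A. Black bars are medians of the other genes per range of signal, which fall to -0.26 at 3000 or more, and the red members lie around them.

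**Figure D3:**
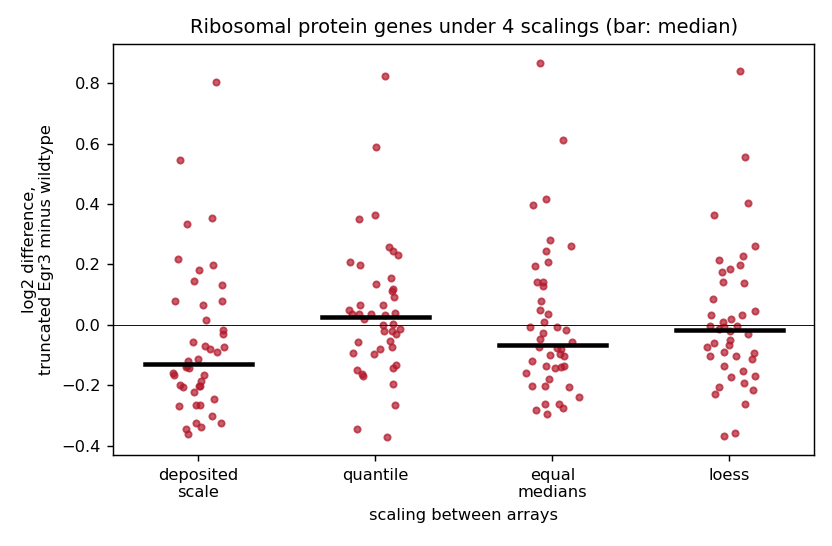
Log2 differences of the members (points) under the deposited scale and 3 other scalings, with the median as a bar. The median is -0.13 under the deposited scale, 0.027 with quantile normalization, -0.066 with equal medians and -0.017 with loess, while Rpl22 lies at 0.80 or more in each.

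Rpl22 is a large-subunit protein on the outer face of the ribosome that cells can do without and that also binds other RNAs, and its loss in mice affects lymphocyte development. Its signal was 1669 in the truncated-Egr3 RNA and 956 in the wildtype RNA, with 1738 in RNA275 and 1654 in RNA276. The wildtype RNA was therefore the low one, and the other 3 RNAs lay close together. The log2 difference was 0.80, or 1.75-fold, and ranged from 0.80 to 0.87 over the 4 scalings. Its dimmer type A probe set read 506 in the truncated-Egr3 RNA and 375 in the wildtype RNA, with 332 in RNA275 and 363 in RNA276, a log2 difference of 0.43. In this probe set the truncated-Egr3 RNA was the high one, and wildtype lay among the rest. The type B probe set read 10259 in the truncated-Egr3 RNA and 8229 in the wildtype RNA, with 10009 in RNA275 and 12264 in RNA276, a log2 difference of 0.32. It was brighter than the probe set used and was passed over because type A came first. By either other probe set Rpl22 was under 1.5-fold. All 3 probe sets were higher in the truncated-Egr3 RNA than in the wildtype RNA, and their median of 0.43 is under 1.5-fold. Type B tended to read higher in the truncated-Egr3 RNA. The 100 probe sets on both types had a mean log2 difference of 0.16 there and 0.02 on type A. The type B value of 0.32 was not corrected for that offset.

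Rpl22l1 encodes the close paralogue of Rpl22, which can take its place in the ribosome and which Rpl22 is known to repress in mice. Rpl22l1 read 1407 in the truncated-Egr3 RNA and 1273 in the wildtype RNA, with 1282 in RNA275 and 1047 in RNA276. Its log2 difference of 0.14 was under the technical SD. Both paralogues were higher in the truncated-Egr3 RNA than in the wildtype RNA.

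Apart from Rpl22, 6 large-subunit genes were higher and 16 lower in the truncated-Egr3 RNA, and the median of all 23 measured was -0.14. Rpl12, which lies at the base of the stalk where elongation factors bind, read 111 in the truncated-Egr3 RNA and 76.1 in the wildtype RNA, with 63.8 in RNA275 and 84.8 in RNA276. Its log2 difference of 0.55 rests on signals near the floor of 67.6. With the higher floor it was 0.13, and with quantile normalization it was 0.59 and passed 1.5-fold. Rpl37 read 1056 in the truncated-Egr3 RNA and 827 in the wildtype RNA, with 912 in RNA275 and 997 in RNA276. At 0.35 in log2 it was the next highest, and the truncated-Egr3 RNA was the high one of the 4. Rpl10a, the protein of the L1 stalk where spent transfer RNA leaves, read 2512 in the truncated-Egr3 RNA and 2216 in the wildtype RNA, and both unlabelled RNAs were higher, at 2891 and 3079. Its log2 difference was 0.18.

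At the other end of the large subunit stood Rpl14, Rpl7l1, Rpl41, Rpl8 and Rpl6. Rpl14 read 85.4 in the truncated-Egr3 RNA and 110 in the wildtype RNA, with 109 in RNA275 and 83.1 in RNA276, so the truncated-Egr3 RNA was no lower than RNA276. Its log2 difference was -0.36, and -0.11 with the higher floor. Rpl41, a very short basic peptide, read 3916 in the truncated-Egr3 RNA and 4904 in the wildtype RNA, with 4411 in RNA275 and 4689 in RNA276. The log2 difference of -0.32 was -0.10 with quantile normalization, and its 2 other measured probe sets gave -0.54 and -0.28. Rpl8, a protein near the catalytic centre, read 2638 in the truncated-Egr3 RNA and 3254 in the wildtype RNA, with 2923 in RNA275 and 3139 in RNA276. Its log2 difference of -0.30 became -0.20 with quantile normalization. Rpl6 had a log2 difference of -0.27, and Rpl39, which lines the exit tunnel for the new chain, one of -0.24 (136 in the truncated-Egr3 RNA and 161 in the wildtype RNA).

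The acidic stalk recruits the elongation factors. Rplp0, its base, read 3107 in the truncated-Egr3 RNA and 3418 in the wildtype RNA, with 3274 in RNA275 and 3678 in RNA276. Rplp2 read 3188 in the truncated-Egr3 RNA and 3445 in the wildtype RNA, with 3455 in RNA275 and 3747 in RNA276. In both genes the truncated-Egr3 RNA was lowest and RNA276 highest. Their log2 differences of -0.14 and -0.11 were under the technical SD and turned to 0.02 and 0.07 with quantile normalization.

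In the small subunit 6 of 21 measured genes were higher and 15 lower in the truncated-Egr3 RNA, with a median log2 difference of -0.08. Rps19, needed to mature the small subunit and mutated in Diamond-Blackfan anaemia in humans, read 2318 in the truncated-Egr3 RNA and 1840.2 in the wildtype RNA, with 2096 in RNA275 and 1954 in RNA276. The truncated-Egr3 RNA was highest of the 4, against the direction of most bright genes on type A. The log2 difference was 0.33, and 0.36 with quantile normalization. Rps25, which takes part in internal initiation on some viral RNAs, read 166 in the truncated-Egr3 RNA and 143 in the wildtype RNA, and RNA275 and RNA276 spanned both at 181 and 126. Its log2 difference was 0.22. Rps4x, a gene of the X chromosome, had one of 0.08. The protein of Rps6 is phosphorylated by the S6 kinases downstream of mTOR. That gene read 192 in the truncated-Egr3 RNA and 189.9 in the wildtype RNA.

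The lowest small-subunit values were those of Rps18, Rps28, Rps3 and Rps3a1. Rps18, in the head of the subunit, read 2926 in the truncated-Egr3 RNA and 3699 in the wildtype RNA, with 3222 in RNA275 and 3712 in RNA276. Its log2 difference was -0.34, and 2 other bright probe sets of the gene gave -0.26 and 0.15. Rps28 read 3090.0 in the truncated-Egr3 RNA and 3874 in the wildtype RNA, with 3412 in RNA275 and 3376 in RNA276. The wildtype RNA stood above the other 3 here, and the log2 difference was -0.33, with -0.25 and -0.21 by its 2 other probe sets. With quantile normalization Rps18 and Rps28 were at -0.15 and -0.13. Rps3, at the channel where messenger RNA enters, read 2618 in the truncated-Egr3 RNA and 3149 in the wildtype RNA, with 2984 in RNA275 and 4308 in RNA276. The log2 difference was -0.27, and its type B probe set gave 0.13. Other genes with a signal of 1000 or more had a median of 0.15 on type B, and the 0.13 was not corrected for that. Rpsa, also known as the laminin receptor precursor, read 2481 in the truncated-Egr3 RNA and 2737 in the wildtype RNA, a log2 difference of -0.14.

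The array reads paralogues that are used in few tissues as well as the common forms. Rpl3l replaces Rpl3 in mature skeletal and heart muscle, and its signal stayed below the floor at 3.59 in the truncated-Egr3 RNA and 4.91 in the wildtype RNA, with 5.93 in RNA275 and 8.31 in RNA276. Rpl39l, a form found in testis, and Rps4l were also below the floor in all 4 RNAs. These 3 paralogues therefore gave no difference. Rps27l, a p53 target gene, read 1161 in the truncated-Egr3 RNA and 1304 in the wildtype RNA, with 1699 in RNA275 and 2092 in RNA276. Both unlabelled RNAs were above both labelled ones, and that order held in the 2 other Rps27l probe sets. Between the labelled RNAs the sign did not hold: the log2 difference was -0.17 by the brightest probe set and 0.29 and 0.33 by the others. The common form Rps27 read 90.4 in the truncated-Egr3 RNA and 78.8 in the wildtype RNA, with 128 in RNA275 and 88.4 in RNA276. Probe sets of a single gene can read far apart, as those of Rpl22 did. The signals therefore do not rank genes by expression, and a low signal does not show that a gene is little used.

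Rpl7l1, whose yeast relative acts in the making of the large subunit, had the widest range over the 4 RNAs. It read 222 in the truncated-Egr3 RNA and 282 in the wildtype RNA, with 354 in RNA275 and 410 in RNA276. The highest was 1.84 times the lowest, and the log2 difference of the labelled RNAs was -0.34. Its other type A probe set gave -0.22 and its type B probe set -0.05. Rpl7, the common form, had the narrowest range but for Rps15, at 1.06 times, with 2561 in the truncated-Egr3 RNA and 2662 in the wildtype RNA.

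How far a single probe set can be read was seen from genes with several. The 49 members had 105 probe sets with 1 symbol, of which 84 were measured. For 20 members more than 1 was measured, and in 8 of these all probe sets had the same sign. Over the 68 within-gene pairs, the median absolute difference between their log2 differences was 0.19, and the root mean square was 0.72. Signs and pairs took both array types together, without correction for the offset between them. Rps10 held the exception, chosen here after its values were seen. A dimmer probe set of Rps10 read 1253 in the truncated-Egr3 RNA and 193 in the wildtype RNA, with 1972 in RNA275 and 1756 in RNA276, a log2 difference of 2.70. The other 4 measured Rps10 probe sets gave differences between -0.16 and -0.07. Only the wildtype array was low in that probe set. Without it the root mean square over 64 pairs was 0.24. Of the 49 probe sets used, 14 carry the x ending by which the array maker marks possible cross-hybridisation, so related sequences can add to their signal.

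**Figure D4:**
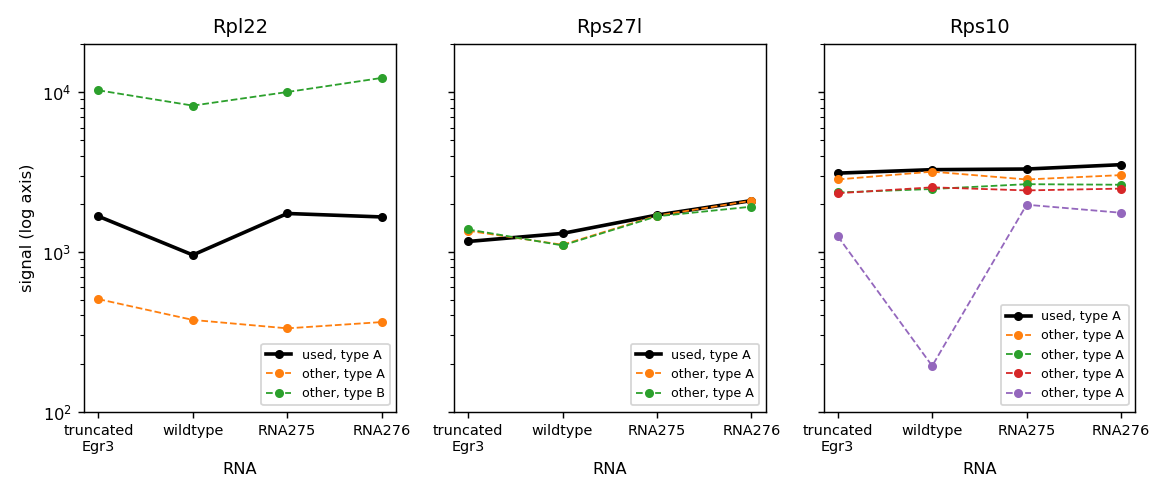
Signals (log axis) of the measured probe sets of Rpl22, Rps27l and Rps10 in the 4 RNAs, the probe set used in black and the others dashed. All 3 Rpl22 probe sets are lower in wildtype than in truncated Egr3, the Rps27l probe sets are highest in RNA276, and a single Rps10 probe set drops to 193 in wildtype.

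Across the 4 RNAs the members varied less than other genes. The highest of the 4 signals was 1.23 times the lowest for the median member, against 1.47 times for the median of all measured genes. For 6 members, Rpl7l1, Rpl22, Rps27l, Rpl12, Rps3 and Rps27, the ratio was 1.5 or more, 6 of 44, against 46.7% of all measured genes. Among genes with a mean signal of 1000 or more, the median ratio was 1.22 for the members and 1.42 for the other genes. That range does not match them: the median signal was 3132 for the members and 1423 for the other genes. Of those 664 other genes, 262 were read on type B, and none of the members were.

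The truncated-Egr3 RNA had the lowest signal for 30 of 44 members, and RNA276 had the highest for 29. Over all measured genes those shares were 24.5% and 30.6%. The summed signal of the members on type A made up 2.35% of all type A signal in the truncated-Egr3 RNA, 2.50% in the wildtype RNA, 2.52% in RNA275 and 2.65% in RNA276. The upper end of the arrays followed almost the same order, since the 99th percentile of type A signal was 2101 in truncated Egr3, 2178 in wildtype, 2128 in RNA275 and 2390.3 in RNA276. The median member read above that percentile in each RNA, so the members are themselves part of that upper end. With quantile normalization the truncated-Egr3 RNA was lowest for 14 members and RNA276 highest for 11, so the order changed. The wildtype RNA was then lowest for 15 members, against 20.4% of all measured genes. RNA275 was then highest for 18, against 24.6% of all measured genes. Less messenger RNA of a gene per cell and fewer cells that make it cannot be told apart in such samples.

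**Figure D5:**
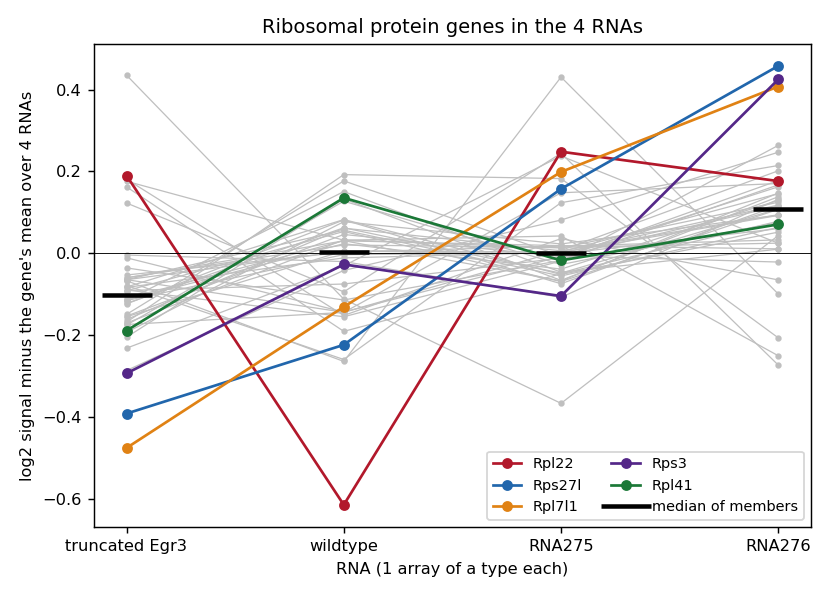
Log2 signal of each measured member minus its mean over the 4 RNAs, deposited scale, with 5 genes coloured and the median of the members as a bar. Most members lie low in truncated Egr3 and high in RNA276, while Rpl22 dips in wildtype and Rps27l and Rpl7l1 stand apart in RNA275 and RNA276.

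Other genes of the translation machinery were described in the same way. Log2 differences had an SD of 0.17 in the list of other terminal oligopyrimidine genes, 0.27 in mitochondrial ribosomal proteins, 0.31 in ribosome biogenesis and 0.35 in translation control, beside 0.24 in the members. Of the 18 terminal oligopyrimidine genes that are not ribosomal proteins, all were measured and none was 1.5-fold apart, with 12 lower in the truncated-Egr3 RNA and a median log2 difference of -0.07. Hnrnpa1, an RNA-binding protein, and Nap1l1, a histone chaperone, had the largest differences in that list, at 0.38 and 0.28. Of 34 measured ribosome biogenesis and RNA polymerase I genes 26 were lower in the truncated-Egr3 RNA, with a median of -0.17. At 1.5-fold, 2 of the 34 were higher and 1 lower, against 4.7% and 4.59% of all measured genes. At the ratio of 5 to 4, 3 of the 34 were higher and 9 lower, against 16.4% and 14.0% of all measured genes. Rrs1, a ribosome assembly factor, read 243 in the truncated-Egr3 RNA and 145 in the wildtype RNA, and Polr1b, the second subunit of RNA polymerase I, 119.9 in the truncated-Egr3 RNA and 71.8 in the wildtype RNA. Ubtf, the factor that opens ribosomal RNA genes to that polymerase, went the other way, at 315 in the truncated-Egr3 RNA and 479.8 in the wildtype RNA.

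Of 21 measured genes of mTOR, Myc and translation control, 10 were higher and 11 lower, with a median of -0.04. At the ratio of 5 to 4, 5 of the 21 were higher and 2 lower, against 16.4% and 14.0% of all measured genes. Eif2ak2, the interferon-induced kinase that halts initiation on sensing double-stranded RNA, was at least 1.76-fold lower in the truncated-Egr3 RNA, which was at the floor (53.2 in the truncated-Egr3 RNA and 119 in the wildtype RNA). Mxd4, an antagonist of Myc, was at least 1.51-fold higher, with the wildtype RNA at the floor. Mitochondrial ribosomal proteins are encoded in the nucleus and build the other ribosome of the cell. Of 76 measured, 30 were higher, and the median was -0.06. At the ratio of 5 to 4, 8 of the 76 were higher and 8 lower, against the same 16.4% and 14.0%. Mrps15 was 1.55-fold higher, and Mrpl1 and Mrpl58 were 1.69-fold and 1.52-fold lower, in the truncated-Egr3 RNA. Over all measured genes, 4.7% were 1.5-fold or more higher and 4.59% that far lower.

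The RNAs carried the signals of myotubes. All 22 listed myotube markers were measured, and 20 or more were above the floor in each RNA. Their median log2 difference was -0.17, and their summed signal was 44041 in the truncated-Egr3 RNA, 50594 in the wildtype RNA, 44874 in RNA275 and 47925 in RNA276. Of 8 fibroblast markers 5 were measured, and the summed signal of the list was 9226 in the truncated-Egr3 RNA and 9596 in the wildtype RNA, with 7982 in RNA275 and 8871 in RNA276. The markers did not share a direction: log2 differences were 1.02 for Dcn, 0.17 for Postn, 0.08 for Col3a1, -0.19 for Col1a2 and -0.33 for Col1a1. In all 4 RNAs, 8 of the 10 macrophage markers and 4 of the 5 endothelial markers stayed below the floor. Of 3 Schwann cell markers that could be matched, S100b was below the floor in all 4, Sox10 had a log2 difference of -0.02, and Cnp was 1.82-fold lower in the truncated-Egr3 RNA. The ratio of 3′ to 5′ signal of the Gapdh control on type A was 0.823 in the truncated-Egr3 RNA and 0.720 in the wildtype RNA, with 0.777 in RNA275 and 0.782 in RNA276. On type B it was 0.798 in the truncated-Egr3 RNA and 0.763 in the wildtype RNA. The beta-actin ratio was 1.10 in the truncated-Egr3 RNA and 1.05 in the wildtype RNA on type A. On type B the direction was the opposite, with 1.11 in the truncated-Egr3 RNA and 1.19 in the wildtype RNA. The part of fibroblasts, of Schwann cells and of RNA quality in the differences of the members was not tested.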

How the data were processed

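Per the labels, total RNA of mouse myotubes was hybridised, and groups were taken from the sample descriptions. The values as deposited by the authors are intensity signals on a linear scale, 1 per probe set, whose 2% trimmed means were 150.0 on all 8 arrays. With which software and normalization is not given in the sources used here. The common mean assumes that total signal is alike. Array types A and B of an RNA were treated as the same RNA, not as replicates.

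Gene symbols came from the platform annotation and matched a RefSeq gene table (GRCm38.p6) by gene number for 20351 of 20380 single-symbol probe sets on type A and 14486 of 14661 on type B. On type A 691 probe sets had several symbols and 1619 none or were controls, and on type B 245 and 7669. Probe sets with several symbols were not named. The brightest probe set stood for each gene, type A first. Signals were floored at the 50th percentile (type A) and the 60th (type B) of the labelled RNAs, turned to log2 and subtracted, truncated Egr3 minus wildtype. A fold with 1 RNA at the floor is a lower bound. The threshold was 1.5-fold, since 1 RNA per label allows no test. The number of arrays limits the precision.

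Members, lists and threshold were chosen with earlier results of these data known. Named members are the 8 highest and 8 lowest differences, members 1.5-fold apart, the 5 widest ranges over the RNAs, stalk proteins, Rpsa and paralogue pairs, with a few more (Rps6, Rps9, Rps10, Rps15, Rps20, Rps3a1 and Rpl35) named after their values were seen. Other lists give up to 6 genes 1.5-fold apart, or the 2 largest. The alternatives were quantile normalization, equal medians, loess (span 0.3), other floors, other thresholds and other choices of probe set. The counting was tested on simulated data. Protein sequences were not used here. The tools were matplotlib 3.10.9, statsmodels 0.14.6, scipy 1.17.1, pandas 2.3.3 and numpy 2.4.6 in Python 3.11.15.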

Additional observations from a re-analysis of the deposited data

Results flagged for a closer look

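Rps27l read 2092.2 in RNA276, which has no stated condition, at least 1.5 times its signal in either labelled RNA (1161 in truncated Egr3 and 1304 in wildtype). The 2 other Rps27l probe sets read 2089.5 and 1917 in RNA276. RNA275 read 1699 by the probe set used. No other measured member reached 1.5 times both labelled RNAs in RNA275 or RNA276.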

How the results depend on the processing

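The median log2 difference of the members was -0.13 as reported, -0.066 with equal medians, -0.017 with loess and 0.027 with quantile normalization, where it changed sign. The percentage of members with a positive difference was 29.5% as reported and 54.5% with quantile normalization. Other floors and choices of probe set left the median between -0.14 and -0.09. The 1 member at least 1.5-fold higher became 2 with quantile normalization and with equal medians (Rpl12 joined Rpl22), 2 with each probe set on its own (a probe set of Rps10) and 2 with probe sets of several symbols, the last pair chosen after seeing the data. Taking each gene's median probe set value, the count was 0, since Rpl22 was then at 0.43. At a ratio of 5 to 4, 4 members were higher and 5 lower, and at 2-fold 0 were higher. No member was 1.5-fold lower under any scaling, floor or probe set choice tried. No paired analysis was possible because each label has 1 RNA. Rpl12 and Rpl14 had the same differences with no floor as reported, and 0.13 and -0.11 with the higher floor.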

Other observations

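The run of pyrimidines at the annotated start did not divide the measured members by direction. The 21 measured members with a run had a median log2 difference of -0.12, between -0.36 and 0.55, and the 18 without had a median of -0.14, between -0.34 and 0.80.

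In 14 of the 44 measured members, among them Rpl10a, Rps20, Rps9 and Rps27l, RNA275 and RNA276 were both above both labelled RNAs, and in 0 members were both below. Over all measured genes those shares were 20.2% and 22.8%.

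Another 112 probe sets name a ribosomal protein gene together with other symbols. Of these 98 were measured, with a median log2 difference of -0.07 (truncated Egr3 minus wildtype). Of the 98, 38 were higher and 60 lower in the truncated-Egr3 RNA. By 1.5-fold or more, 3 of the 98 probe sets were higher and 0 lower, against 4.7% and 4.59% of all measured genes.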
